A study of Mus musculus with 3 samples.

Results

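Complement genes were followed across the immune cells of the mouse pancreas. The 8 genes were those for the chains of C1q (C1qa, C1qb and C1qc), the central component C3, the anaphylatoxin receptors C3ar1 and C5ar1, and the alternative pathway proteins properdin (Cfp) and factor B (Cfb). They were chosen by name, as 8 of the 31053 genes in the count tables, and all 8 were found there. Each gene was described in every barcode of at least 1000 unique molecular identifiers (UMIs, each standing for 1 captured RNA molecule) with at most 30% of its UMIs from mitochondrial genes.

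Live CD45+ cells were sorted from the pancreas of wild-type C57BL/6 mice and sequenced as 3 droplet libraries, 1 per group. The PBS group received the vehicle, and the other groups received WGP, a particulate beta-glucan from baker's yeast that was injected into the peritoneum, 3 days (3-day WGP) or 7 days (7-day WGP) before euthanization. The study's methods give the animals as males and females of 6 to 8 weeks. The labels do not say how many mice, or of which sex, went into a library. With 1 library per group no test between groups was possible, so every interval given here is a 95% interval of counting error alone, and differences between mice are not in it.

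Complement is a set of proteins that tag particles and dying cells for uptake. C1q is the recognition molecule of the classical pathway, and its A, B and C chains are made together, mostly by macrophages and not by the liver. Every pathway meets at C3, whose cleavage coats the target and releases the peptide C3a, while C5a is released one step later. Factor B joins C3b to form the alternative pathway convertase, which properdin stabilises, and C3ar1 and C5ar1 are the receptors that read C3a and C5a on myeloid cells.

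Cells that passed numbered 5249 in the PBS library, 4879 at 3 days and 4174 at 7 days, with medians of 5755, 5754 and 8077 UMIs per cell. Between 1 and 9 cell barcodes were shared by any pair of libraries. The mix of male and female cells differed between the libraries. In the monocyte/macrophage class of PBS, 877 cells held Xist and no Y-linked transcript and 10 held the reverse, against 92 and 504 cells at 3 days and 578 and 599 cells at 7 days. B cells did not show this shift, with 27.1%, 25.1% and 29.9% of the cells that could be assigned holding Xist. Neutrophils did shift, with 71.0%, 9.52% and 30%, from 22, 10 and 21 cells with Xist only. The sex or the mouse of origin therefore cannot be told apart from WGP in the monocyte/macrophage class as a whole or in neutrophils. Values in the Xist cells alone are given beside the class levels of C1q, C3, Cfb, C3ar1, C5ar1 and Cfp. They are not given for neutrophils, for the other complement genes or for most sub-cluster values.

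Cells were grouped by clustering that left out the 8 genes and the rest of the complement list, and clusters were named from marker lists. Names such as B cell stand for B-cell-like clusters. The monocyte/macrophage class held 933, 808 and 1485 cells, which was 17.8%, 16.6% and 35.6% of the PBS, 3-day and 7-day libraries. Its own marker list summed to 22641, 29976 and 32805 UMIs per 1000000 UMIs of the cells (CPM). The summed B cell and T cell lists reached at most 173 and 72.2 CPM in it, and other lists moved between the libraries. The erythroid list, whose hemoglobin genes Hbb-bs and Hbb-bt are among the top genes of 1 sub-cluster described here (sub-cluster 0), was at 49.9, 486 and 473 CPM. The neutrophil list was at 302, 746 and 212 CPM and the acinar list at 525, 84.8 and 71.6 CPM. Their part in the results was not tested.

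The C1q genes lie side by side on mouse chromosome 4, in the order C1qb, C1qc and C1qa on the minus strand, within 18675 bases (chr4:136880129-136898803, GRCm38). The sequence before the start sites of C1qb, C1qc and C3 is shown as a description only. Promoter entries were found for 6 of the 8 genes in RefSeq (GRCm38.p6), but not for C1qa or Cfb. The stretches below end at the start site or at the edge of the annotated gene. Capitals mark GAGGAA, a core motif bound by the myeloid factor PU.1, and TGCTGA, part of the site bound by MAF family factors, each on either strand.
C1qb (chr4:136886201-136886450, minus strand): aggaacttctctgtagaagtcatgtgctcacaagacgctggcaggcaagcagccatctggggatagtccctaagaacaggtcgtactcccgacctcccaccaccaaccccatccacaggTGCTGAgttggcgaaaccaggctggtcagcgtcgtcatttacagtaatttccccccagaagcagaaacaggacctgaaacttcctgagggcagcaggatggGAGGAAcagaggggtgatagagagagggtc
C1qc (chr4:136893066-136893164, minus strand): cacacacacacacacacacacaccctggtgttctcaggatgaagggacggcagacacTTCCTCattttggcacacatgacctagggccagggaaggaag
C3 (chr17:57228137-57228386, minus strand): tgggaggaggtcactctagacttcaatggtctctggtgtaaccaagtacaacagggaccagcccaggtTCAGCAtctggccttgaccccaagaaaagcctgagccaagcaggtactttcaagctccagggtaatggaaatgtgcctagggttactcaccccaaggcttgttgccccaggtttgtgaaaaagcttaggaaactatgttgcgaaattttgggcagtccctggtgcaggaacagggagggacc
GAGGAA stood in the C1qb and C1qc stretches and TGCTGA in those of C1qb and C3. Of the entries not printed, C3ar1 also held TGCTGA, while C5ar1 and Cfp held neither motif. These are short motifs, and of 32851 windows of 250 bases before a RefSeq start, 23.3% held GAGGAA and 16.1% held TGCTGA. The C1qc stretch, of 99 bases, is shorter than these windows. The matches describe the letters only and say nothing about binding.

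C1q was nearly restricted to 1 class of cells. The monocyte/macrophage class held 97.7%, 98.3% and 97.3% of all C1q UMIs in PBS, 3-day WGP and 7-day WGP, although it was at most 35.6% of the cells. Its C1q level, the sum of the 3 chains, was 11011 CPM in PBS (10947 to 11074), 4886 CPM in 3-day WGP (4847 to 4926) and 3751 CPM in 7-day WGP (3723 to 3780). The levels therefore stood in the order PBS, 3-day and 7-day, with no overlap of counting intervals. The log2 ratio to PBS was -1.17 (-1.19 to -1.16) at 3 days and -1.55 (-1.57 to -1.54) at 7 days, that is 2.25-fold and 2.94-fold lower. In the 877, 92 and 578 Xist cells alone the levels were 11073, 8344 and 4110 CPM, and the log2 ratio was -0.41 at 3 days and -1.43 at 7 days, so the 3-day difference was much smaller there.

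Each chain followed the same order. C1qa stood at 4024, 1719 and 1101 CPM, C1qb at 4096, 1791 and 1662 CPM, and C1qc at 2890, 1376 and 988 CPM in PBS, 3-day WGP and 7-day WGP. The share of cells with a C1q UMI also became smaller. With every cell thinned to 1000 UMIs it was 79.8% in PBS (77.1 to 82.4), 70.8% in 3-day WGP (67.5 to 73.9) and 50.5% in 7-day WGP (47.9 to 53.1), and 86.1%, 84.8% and 65.9% without thinning. Median depth in the class was 10328, 13928 and 10839 UMIs. B cells, which do not make C1q, gave the background at median depths of 3861, 4232 and 5007 UMIs, and 1.07%, 2.25% and 3.65% of them had a C1q UMI after thinning.

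**Figure D1:**
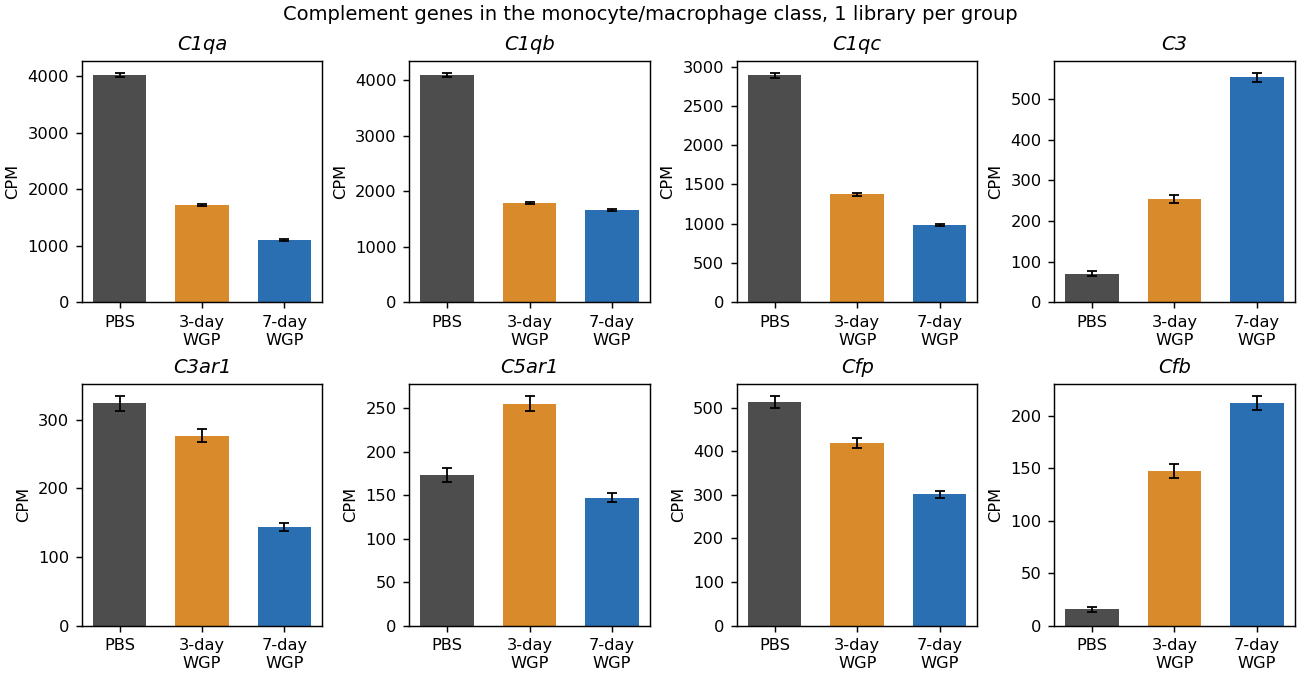
Level of each of the 8 genes (CPM, linear axes from 0) in the monocyte/macrophage class of the PBS, 3-day WGP and 7-day WGP libraries, with 1 library per bar and 95% counting intervals as error bars. The C1q chains, C3ar1 and Cfp are highest in PBS, C3 and Cfb are highest at 7 days, and C5ar1 is highest at 3 days.

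Outside this class, C1q was low but not even. Barcodes of at most 100 UMIs, which stand for free RNA, held C1q at 3377, 2404 and 2267 CPM. With the share of free RNA estimated from acinar cell transcripts, this would put 36.6, 42.1 and 20.1 CPM into B, T and NK cells, and the measured levels were 32.1, 31.8 and 55.1 CPM. The 7-day value was thus above the estimate and the other values were below it. Within PBS B cells the C1q level was 108 CPM in the 337 Xist cells and 1.4 CPM in the 906 cells with a Y-linked transcript only, so these UMIs were not spread evenly over B cells. In the gamma-delta T cell class the level was 17.3, 5.42 and 387 CPM, but at 7 days only 10.9% of its 64 cells held any C1q UMI. An unnamed cluster of low depth with islet and mast cell genes, cluster 14, held 1536, 613 and 790 CPM. Conventional dendritic cells held 124, 68.9 and 46.7 CPM, and the fibroblasts of PBS and 3-day WGP held 263 and 14.3 CPM. No free RNA estimate was made for these groups.

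All 8 members passed a floor of 20 CPM in at least 1 library of each pair, but Cfb, at 15.4 CPM in PBS, passed only through the WGP libraries where it was high and so had to differ. With 10 CPM added to both levels, 3 members (the C1q chains) were at least 2-fold lower in 3-day WGP than in PBS, where 3.61% of 6233 genes were, and 2 members (C3 and Cfb) were at least 2-fold higher, where 4.01% were. At 7 days, 4 members (the C1q chains and C3ar1) were at least 2-fold lower, where 5.89% of 6165 genes were, and 2 members (C3 and Cfb) at least 2-fold higher, where 4.74% were. Between the WGP libraries, C3 alone passed 2-fold, being higher at 7 days, where 1.34% of 5839 genes were, and no member was 2-fold lower, where 2% were. The median log2 difference from PBS over the members was -0.25 at 3 days and -0.93 at 7 days, beside -0.04 and -0.11 over all genes compared.

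The class was made of different cells in each library, and the sub-clusters differed in C1q. Clustering within the class gave 9 sub-clusters. Sub-cluster 4, resident macrophage-like with Cd209f, Gas6 and Ccl8 as leading genes, held 224, 51 and 9 cells. Sub-cluster 3, unnamed and led by Cd72, Ms4a7 and Pmepa1, held 416, 62 and 35 cells. Sub-cluster 8, large peritoneal macrophage-like with Cxcl13, Vsig4 and Fcna, held 34, 12 and 0 cells. Together these were 72.2%, 15.5% and 2.96% of the class and gave 93.3%, 29.1% and 7.55% of its C1q UMIs. In their place stood sub-cluster 1, Arg1 macrophage-like (Saa3, Arg1 and Slpi), with 11, 418 and 246 cells. Sub-cluster 0, inflammatory macrophage-like (Ly6i, Ccl5 and Cxcl9), held 6, 39 and 661 cells, and sub-cluster 2, Ly6C-high monocyte-like (Cxcl10, Vcan and Ms4a4c), held 27, 146 and 398 cells. Sub-cluster 6, unnamed and led by Retnla, Ear2 and the T cell receptor gene Trbc2, held 75, 20 and 24 cells. Its make-up changed, since 9.33% of its PBS cells but 75% and 87.5% of its WGP cells had a Trbc2 UMI.

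In sub-clusters 3 and 4, C1q differed less between libraries than in the class as a whole. In sub-cluster 4 it was 16178 CPM in PBS and 15638 CPM in 3-day WGP. In sub-cluster 3 it was 13826, 11392 and 11479 CPM, with log2 ratios to PBS of -0.28 (-0.32 to -0.24) and -0.27 (-0.32 to -0.22). Both held more C1q than the other sub-clusters 0, 1, 2, 5 and 6 in each library where at least 20 of their cells were found. The Arg1 macrophage-like cells were intermediate, at 5107 CPM at 3 days and 7678 CPM at 7 days, followed by the inflammatory macrophage-like cells at 2707 and 2807 CPM. Ly6C-high monocyte-like cells held 2559, 933 and 2298 CPM, and their 3-day value stood apart from the others. Sub-cluster 5, Ly6C-low monocyte-like with Ace as its leading gene, was lowest at 37.4, 130 and 170 CPM.

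The comparison was repeated with the same mix of sub-clusters in both libraries of a pair. Only sub-clusters with at least 20 cells in both libraries could be used, and these include sub-cluster 6, whose C1q was 2945, 1306 and 1726 CPM. Every same-mix value given here and for the other genes includes it, and none holds the share of Xist cells. At 3 days these were 5 sub-clusters with 89.4% of the PBS and 31.9% of the WGP UMIs of the class, and the observed log2 difference over them was -1.40. It was -0.22 with the PBS mix in both libraries and -0.42 with the WGP mix. At 7 days, 4 sub-clusters covered 67.6% and 32.3% of the UMIs, and the observed difference of -1.94 became -0.29 with the PBS mix and -0.22 with the WGP mix. The Arg1 and inflammatory macrophage-like cells had too few PBS cells to enter, so nothing is said here about how their C1q compares with PBS.

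**Figure D2:**
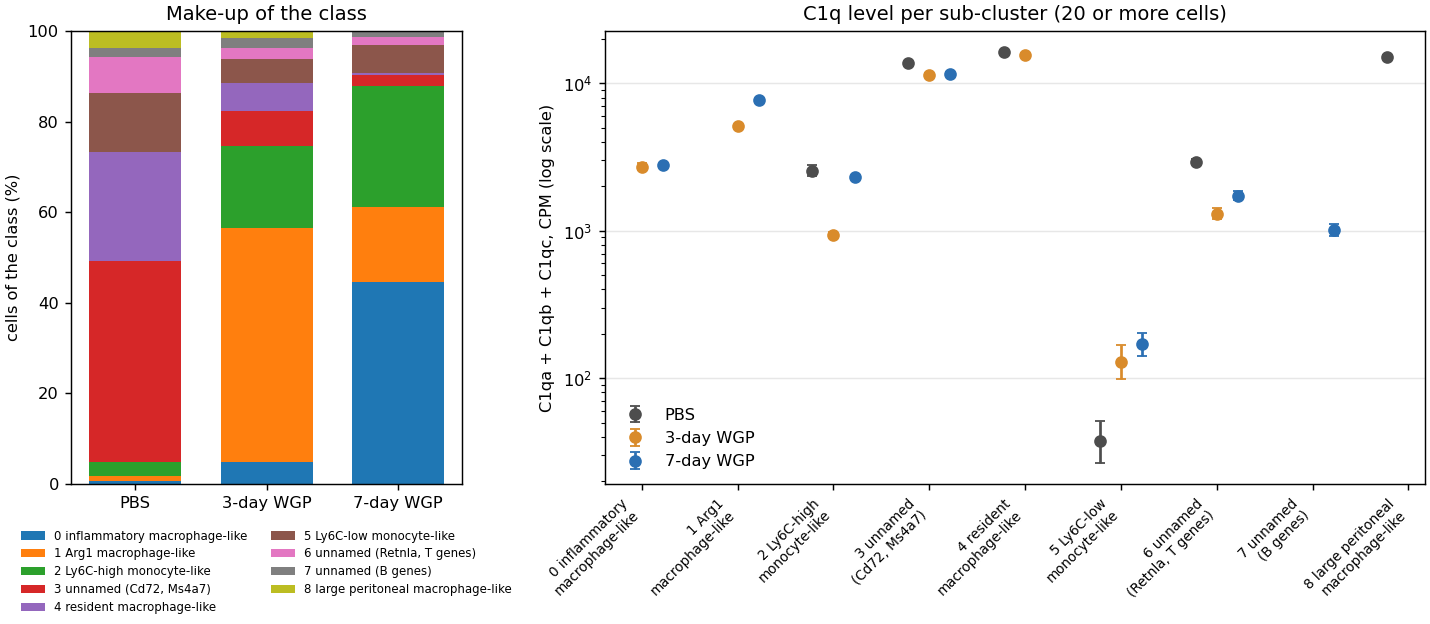
Left, share of the cells of the monocyte/macrophage class in each sub-cluster (%, 1 bar per library). Right, C1q level of each sub-cluster (sum of the 3 chains, CPM on a log axis) in each library with at least 20 of its cells, with 95% counting intervals. Sub-clusters 3, 4 and 8 lie at or above 11392 CPM wherever they are shown and make up 72.2% of PBS cells but 2.96% of 7-day cells.

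The sub-clusters also differed in how C1q was spread among their cells. In sub-cluster 4 every cell of PBS and 3-day WGP had a C1q UMI, and the median cell held 157 C1q UMIs per 10000 UMIs in PBS, with the middle of the cells between 126 and 192. Arg1 macrophage-like cells had medians of 45.7 at 3 days and 71.3 at 7 days, and 2.2% and 2.8% of them lacked C1q. In the inflammatory macrophage-like cells of 7-day WGP the median was 4.9 while the upper quartile was 43.5, and 32.2% of the 661 cells had no C1q UMI. Ly6C-high monocyte-like cells at 7 days were more uneven still, with a median of 0.8, an upper quartile of 24.6 and a 90th percentile of 82.8. Many cells of both groups thus lacked C1q while others held it at a high level.

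**Figure D3:**
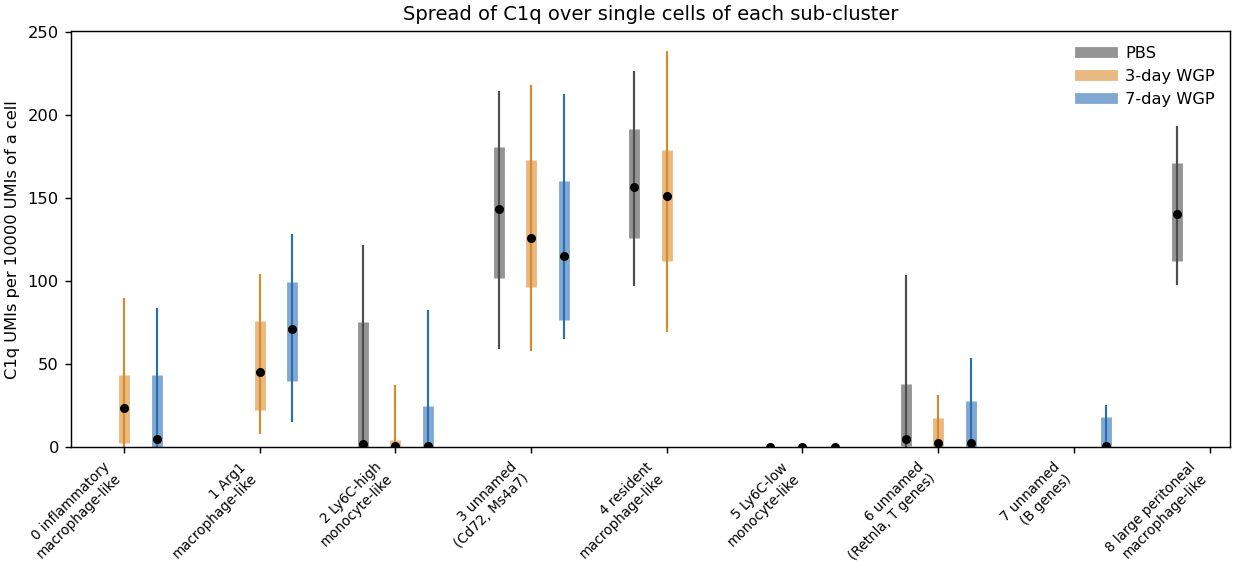
C1q UMIs per 10000 UMIs of a cell in each sub-cluster and library with at least 20 cells. Black points are medians, thick bars the 25th to 75th percentiles and thin lines the 10th to 90th percentiles, over cells of 1 library. The medians of sub-clusters 3, 4 and 8 lie above 100, and those of sub-clusters 2 and 5 lie near 0.

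The 3 chains did not keep the same proportions. In the whole class C1qb was 37.2% of the C1q UMIs in PBS (36.9 to 37.5), 36.7% in 3-day WGP (36.3 to 37.0) and 44.3% in 7-day WGP (43.9 to 44.7), and C1qa was 36.5%, 35.2% and 29.3%. These proportions differed between sub-clusters and, in some, between libraries. C1qb was 32.8% and 30.2% of C1q in resident macrophage-like cells of PBS and 3-day WGP, and 39.3%, 39.1% and 41.7% in sub-cluster 3. In Ly6C-high monocyte-like cells it was 52.7% at 3 days (50.3 to 55.0) and 53.6% at 7 days (52.6 to 54.6), while the 27 such cells of PBS were at 38.4% (34.5 to 42.4). Inflammatory macrophage-like cells stood at 42.2% at 3 days (39.5 to 44.9) and 47.6% at 7 days (46.9 to 48.2). Arg1 macrophage-like cells stood at 36.5% (36.1 to 37.0) and 39.4% (38.8 to 40.0), so within both sub-clusters the share was higher at 7 days.

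The difference in chain proportions was also seen cell by cell. Among cells with at least 20 C1q UMIs, the median share of C1qb per cell was 31.8% in the 216 resident macrophage-like cells of PBS, 48.3% in the 256 inflammatory macrophage-like cells of 7-day WGP and 56.2% in the 107 Ly6C-high monocyte-like cells of 7-day WGP. It was seen in cells with Xist and in cells with a Y-linked transcript. At 7 days C1qb was 55.0% of C1q in Ly6C-high monocyte-like cells with Xist and 50.8% in those with a Y-linked transcript only, and 50.1% and 46.5% in the inflammatory macrophage-like cells. The free RNA of the same library had 1054 CPM of C1qb beside 647 CPM of C1qa and 566 CPM of C1qc. All 3 chains were seen in 90.8% of the cells of the class with any C1q in PBS, in 84.4% at 3 days and in 68.8% at 7 days, values that also depend on how much C1q a cell holds.

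**Figure D4:**
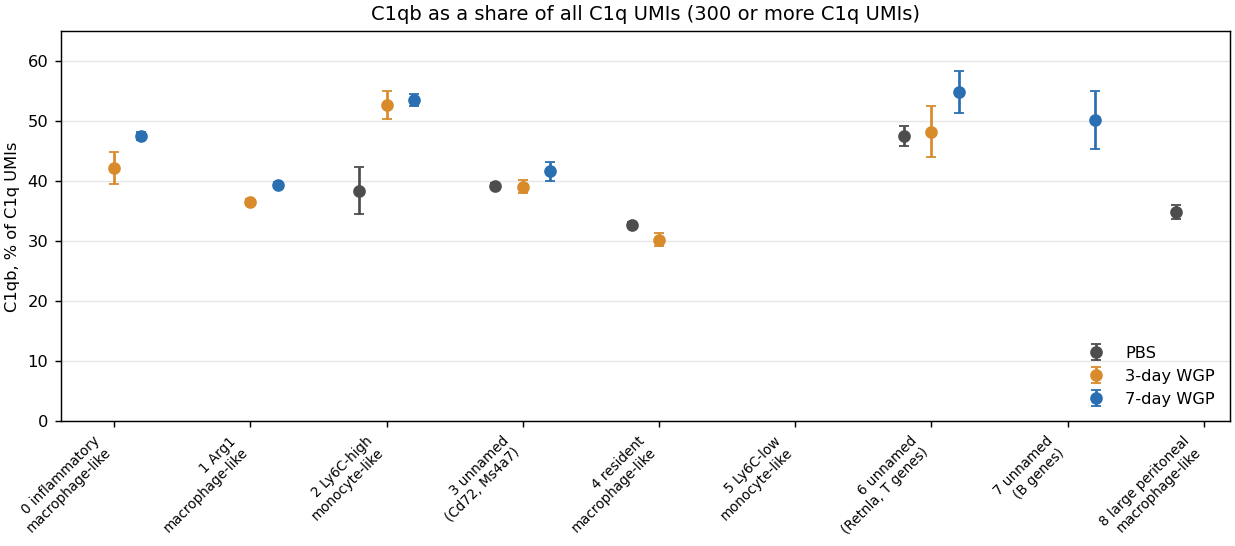
C1qb as a share of all C1q UMIs (%) in each sub-cluster and library with at least 20 cells and 300 C1q UMIs, with 95% binomial intervals. Ly6C-high monocyte-like cells of both WGP libraries lie above 50% and resident macrophage-like cells lie at 30.2% and 32.8%.

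C3 moved in the opposite direction to C1q. In the monocyte/macrophage class it was 70.9 CPM in PBS (65.9 to 76.2), 254 CPM in 3-day WGP (245 to 263) and 554 CPM in 7-day WGP (543 to 565), which was 3.58-fold and 7.81-fold above PBS. In the Xist cells it was 70.9, 164 and 410 CPM, with log2 ratios of 1.21 and 2.53. After thinning, 5.47%, 20.05% and 35.2% of the cells had a C3 UMI, against 0.0509%, 0.237% and 0.576% of B cells. Without thinning the shares in the class were 24.9%, 72.2% and 85.9%. The class gave 22.9% of all C3 UMIs of the PBS library, 37.0% at 3 days and 61.5% at 7 days.

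Part of the C3 difference was seen inside sub-clusters as well. In sub-cluster 3 C3 was 44.99, 89.1 and 110 CPM, with log2 ratios to PBS of 0.99 (0.53 to 1.42) and 1.29 (0.75 to 1.80). In Ly6C-low monocyte-like cells it was 236, 305 and 339 CPM, and in Ly6C-high monocyte-like cells 206, 365 and 313 CPM. C3 was therefore higher in the WGP libraries in each of these groups, while the 3-day interval of sub-cluster 4 (-0.01 to 1.59) included no difference. The highest levels of the class were in the inflammatory and Arg1 macrophage-like cells of 7-day WGP, at 719 and 620 CPM, where the 3-day values were 334 and 261 CPM. With one mix of sub-clusters in both libraries the log2 difference was 0.90 or 0.82 at 3 days, of 2.04 observed, and 1.38 or 0.73 at 7 days, of 2.07 observed.

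C3 was not a purely myeloid transcript. The fibroblast class held 3437 CPM in the 26 cells of PBS and 5446 CPM in the 27 cells of 3-day WGP, a log2 ratio of 0.66 (0.57 to 0.76), and only 9 such cells were found at 7 days. Cluster 22, an unnamed group of 53, 21 and 22 cells with endothelial and mesothelial genes, held 2021, 5646 and 8267 CPM. Its cells were not the same mix in each library, since the endothelial gene Plvap was at 2080, 256 and 528 CPM and the mesothelial and ductal gene Krt19 at 331, 553 and 788 CPM. Ptprc, the gene for CD45 on which the cells were sorted, was at 12.5 to 67.7 CPM in these groups.

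Neutrophils also held C3, at 279, 370 and 419 CPM for 89, 238 and 194 cells. They fell into 2 clusters. The larger one, cluster 13, had C3 at 58.8 CPM from 9 UMIs in 53 cells of PBS, 405 CPM in 3-day WGP and 424 CPM in 7-day WGP. The smaller one, cluster 24, had 36 cells in PBS, where its C3 was 354 CPM. PBS neutrophils were thus a different mix. In cluster 13 the log2 ratio of C3 to PBS was 2.78 (1.84 to 3.93) at 3 days. The share of neutrophils with Xist differed between the libraries, and its part in these values was not tested.

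Factor B was higher in the class in both WGP libraries. Cfb was 15.4 CPM in the class in PBS (13.1 to 17.9), 147 CPM in 3-day WGP (140 to 154) and 212 CPM in 7-day WGP (206 to 219), which was 9.58-fold and 13.8-fold higher. In the Xist cells it was 15.4, 66.1 and 173 CPM, with log2 ratios of 2.098 and 3.49. After thinning, 1.61%, 10.0% and 16.7% of cells had a Cfb UMI, and no B cell did. The WGP levels came mostly from the Arg1 macrophage-like cells, at 216 and 293 CPM, and the inflammatory macrophage-like cells, at 108 and 279 CPM. Sub-clusters 0, 1 and 2 together gave 94.5% and 95.7% of the Cfb UMIs of the class at 3 and 7 days. In sub-cluster 3, Cfb was 7.71 CPM in PBS, 58.3 CPM at 3 days and 62.6 CPM at 7 days, on 36, 36 and 21 UMIs. Most other sub-clusters showed no such clear difference. In Ly6C-high monocyte-like cells Cfb was 67.2, 47.7 and 80.1 CPM, and its log2 ratio to PBS was -0.50 at 3 days (-1.27 to 0.37) and 0.25 at 7 days (-0.47 to 1.08). In resident macrophage-like cells it was 21.3 and 29.3 CPM in PBS and 3-day WGP (log2 interval -0.54 to 1.37). The intervals of Ly6C-low monocyte-like cells also included no difference, and sub-cluster 6 had 0, 15 and 57 Cfb UMIs. The size of the difference depended on the mix of sub-clusters, since the observed log2 values of 1.90 at 3 days and 3.19 at 7 days were 1.95 and 3.04 with the PBS mix but 0.16 and 0.56 with the WGP mix.

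Cfb was also higher after WGP in cluster 22 and in the fibroblasts of 3-day WGP, which held C3 outside the monocyte/macrophage class. It was 35.1, 294 and 648 CPM in cluster 22, and 37.5 and 107 CPM in the fibroblasts of PBS and 3-day WGP. Neutrophils, which also held C3, had 0, 2 and 4 Cfb UMIs. The values of cluster 22 share the change of mix given for C3. C2, the classical pathway paralog that lies beside Cfb, did not follow it in the monocyte/macrophage class, with 183, 32 and 45 UMIs beside 162, 1775 and 3730 for Cfb. Cfb overlaps the gene model Gm20547 on the same strand, so reads could have been shared or dropped in counting, and Gm20547 had 0 UMIs in the class in all libraries.

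**Figure D5:**
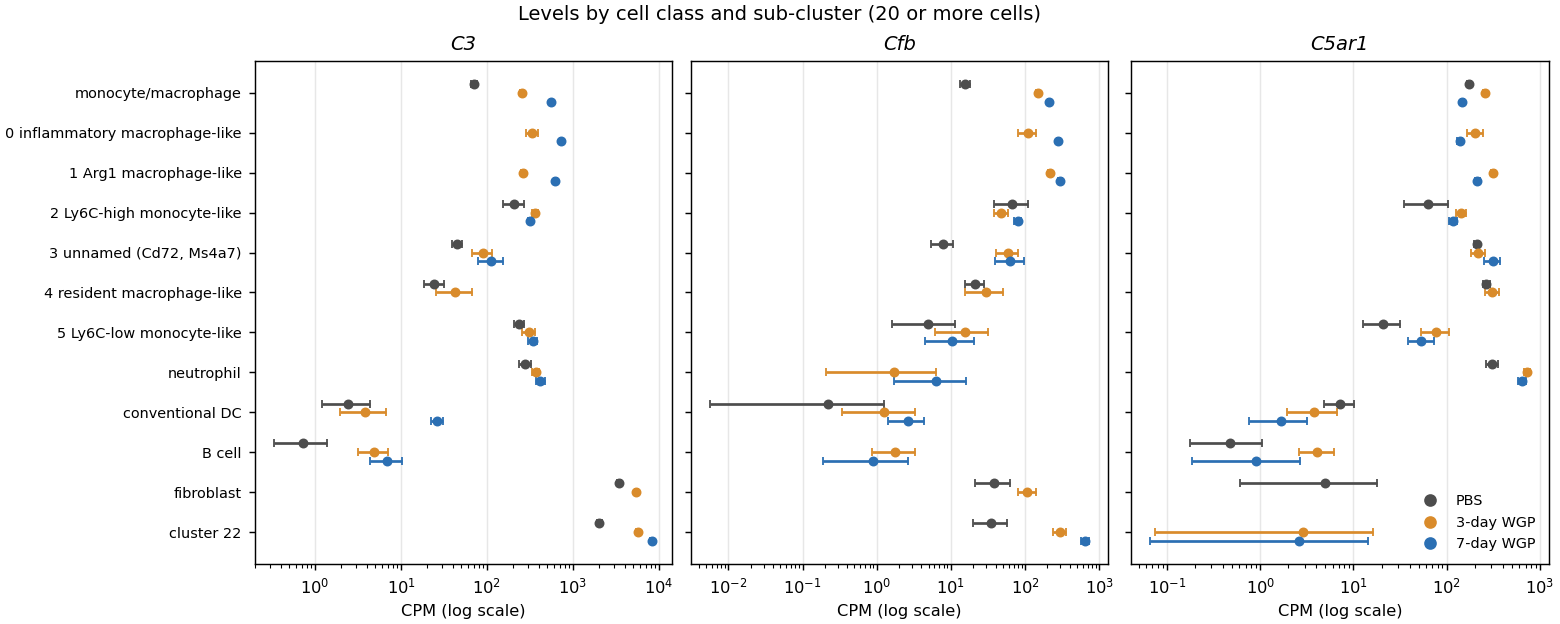
Levels of C3, Cfb and C5ar1 (CPM, log axes) in the monocyte/macrophage class, its sub-clusters 0 to 5 and 5 other cell groups, for each library with at least 20 cells of the group. Points are levels with 95% counting intervals, and groups with 0 UMIs have no point. C3 is highest in fibroblasts and cluster 22, Cfb in cluster 22 and the macrophages of WGP libraries, and C5ar1 in neutrophils.

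The receptor for C3a was found where C1q was. C3ar1 was 324 CPM in the class in PBS (314 to 335), 277 CPM in 3-day WGP (267 to 286) and 144 CPM in 7-day WGP (139 to 150), and the class held 97.3% to 98.2% of its UMIs. In the Xist cells it was 328, 206 and 179 CPM, with log2 ratios of -0.67 and -0.88. It was 475, 407 and 420 CPM in sub-cluster 3 and 366 and 388 CPM in the resident macrophage-like cells of PBS and 3-day WGP. Arg1 macrophage-like cells had like values of 352 and 337 CPM, while inflammatory macrophage-like cells had 152 and 85.4 CPM. Ly6C-low monocyte-like cells were lowest, at 5.91, 8.79 and 7.85 CPM. With the PBS mix of sub-clusters in both libraries, the observed log2 differences of -1.10 at 3 days and -1.69 at 7 days became -0.14 and -0.16. With the WGP mix they were -0.07 and 0.18, so the 7-day sign depended on the mix chosen.

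C5ar1, the receptor for C5a, was the member whose direction turned between the times. It was 173 CPM in the class in PBS (165 to 181), 255 CPM in 3-day WGP (246 to 265) and 147 CPM in 7-day WGP (142 to 153). The log2 ratio to PBS was 0.56 (0.48 to 0.65) at 3 days and -0.23 (-0.32 to -0.15) at 7 days, and the 7-day value changed sign to 0.038 with TMM scaling. In the Xist cells alone the 3-day level was 150 CPM beside 175 CPM in PBS, so the 3-day direction turned as well, and the 7-day level was 175 CPM. The Arg1 and inflammatory macrophage-like cells had too few PBS cells to compare. Their C5ar1 was 314 and 203 CPM at 3 days and lower, at 214 and 138 CPM, at 7 days. In the sub-clusters that could be set against PBS the direction was steadier. C5ar1 was 63.0, 143 and 117 CPM in Ly6C-high and 20.7, 76.9 and 53.7 CPM in Ly6C-low monocyte-like cells, and 209, 217 and 310 CPM in sub-cluster 3. The Xist share differed there too. In sub-cluster 3, 387 of 416 PBS cells held Xist only, while 28 of its 62 cells at 3 days held a Y-linked transcript only. The part of this in the sub-cluster values was not tested.

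None of the 5 sub-clusters compared at 3 days and none of the 4 compared at 7 days had a lower C5ar1 level than in PBS. These sub-clusters held 31.9% of the 3-day and 32.3% of the 7-day UMIs of the class. They include sub-cluster 6, with its changing make-up, at 15.8, 65.9 and 107 CPM. With one mix in both libraries the log2 difference was 0.21 or 0.66 at 3 days and 0.68 or 0.94 at 7 days, where the observed differences over the same sub-clusters were -0.15 and -0.29. The sign at 7 days therefore depended on whether the make-up of the class was held. Holding the mix of sub-clusters does not hold the share of Xist cells. The 3-day intervals of 2 of the 5, sub-cluster 3 (-0.22 to 0.31) and sub-cluster 4 (-0.09 to 0.46), include no difference.

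Neutrophils had the highest C5ar1 of all classes, at 309, 722 and 642 CPM. This difference between libraries was not seen in their larger cluster, cluster 13, at 823, 855 and 732 CPM, where the log2 ratio to PBS was 0.05 (-0.22 to 0.34) at 3 days and -0.17 (-0.46 to 0.13) at 7 days. Cluster 24, which held 36, 13 and 6 cells, had 133 CPM in PBS. Neutrophils gave 8.9%, 20.9% and 13.5% of the C5ar1 UMIs of the libraries. Their differing share of Xist cells was not taken into account in these values.

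Properdin was found in several classes. Cfp was 514 CPM in the monocyte/macrophage class in PBS (500 to 528), 420 CPM in 3-day WGP (408 to 431) and 301 CPM in 7-day WGP (293 to 310). It was 227, 184 and 267 CPM in conventional dendritic cells and 154, 157 and 112 CPM in plasmacytoid dendritic cells. B cells held 50.8, 68.3 and 45.5 CPM, and B, T and NK cells together held 41.5, 36.3 and 20.9 CPM where free RNA would give 2.0, 3.5 and 1.5 CPM. Cfp in B cells was thus above its free RNA estimate, which C1q in B, T and NK cells exceeded only at 7 days. Of the B cell clusters, cluster 2 had 81.6, 82.5 and 66.5 CPM and cluster 0 had 22.1, 44.1 and 17.2 CPM.

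Among macrophages, Cfp was highest in the large peritoneal macrophage-like cells, at 1685 CPM in the 34 cells of PBS, followed by resident macrophage-like cells at 774 and 677 CPM in PBS and 3-day WGP. Arg1 macrophage-like cells held 465 and 435 CPM and Ly6C-low monocyte-like cells 112, 114 and 110 CPM. Sub-cluster 3 went against the class, at 310, 358 and 483 CPM, with a log2 ratio of 0.64 (0.40 to 0.88) at 7 days. Sub-cluster 6 held 817, 362 and 353 CPM. In the Xist cells of the class Cfp was 521, 842 and 344 CPM, which turns the 3-day direction given for the class. With the PBS mix in both libraries the log2 difference was -0.19 at 3 days and 0.13 at 7 days, and with the WGP mix it was -0.18 and -0.30.

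At 3 days the Xist and Y cells of Arg1 macrophage-like sub-cluster 1 differed, with C1q at 9804 CPM in 21 Xist cells and 4798 CPM in 293 Y cells, while at 7 days they held 7427 and 7832 CPM.

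C1q and the other members were not found in the same cells to the same extent. After thinning, C3ar1 was seen in 31.9% of PBS cells with C1q and 1.06% of those without, and in 17.2% and 3.67% at 7 days. For C3 the pattern was different, with 3.62% of cells with C1q and 12.8% of those without in PBS, 16.3% and 29.2% at 3 days, and 35.5% and 35.0% at 7 days. The 7-day library thus held many cells with both C1q and C3, whereas in PBS C3 was more frequent in the cells without C1q. Cfb was seen in 19.7% of 7-day cells with C1q and in 13.6% of those without.

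Across 46 combinations of cell group and library with at least 50 cells, the genes whose log2 levels were most like C1qa were Mrc1, the mannose receptor (Pearson r = 0.93), Ltc4s, Ms4a7 and Tbxas1, of 7030 genes compared. For C3 they were Mgst1 (r = 0.92), Tgm2, Cdc42ep2, Cdc42ep4 and Tnfaip2. For Cfp they were Fcgr2b (r = 0.94), 5031439G07Rik, Cd68, Clec12a and Pirb, and for Cfb they were Mmp14 (r = 0.91), the acute phase gene Saa3, Batf2, Nr1h3 and Msr1. C1qa had r = 0.98 with C1qb, 0.99 with C1qc and 0.97 with C3ar1, but 0.42 with C3. The points share libraries, and these correlations describe the pattern over cell groups only.

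The other complement genes were taken from a list of 44, of which 43 were in the tables and 11 passed the floor in the class. In 3-day WGP 2 of them were at least 2-fold lower and 2 at least 2-fold higher than in PBS, where 3.61% and 4.01% of all genes compared were. In 7-day WGP 5 were lower and 0 higher, where 5.89% and 4.74% of all genes were. Their median log2 difference was -0.27 at 3 days and -0.90 at 7 days. The ficolin Fcna, which starts the lectin pathway, was 290, 239 and 49.7 CPM in PBS, 3-day WGP and 7-day WGP, and C4b was 225, 198 and 72.0 CPM. The C3b receptor Vsig4 was 39.5, 17.4 and 2.45 CPM, and the collectin Colec12 was 43.7, 5.89 and 2.56 CPM. Fcna and C4b were each at least 2-fold lower at 7 days, as the C1q chains were. Vsig4 and Colec12 are also among the genes counted as lower at 7 days, and Colec12 at 3 days. There they passed the floor of 20 CPM only through PBS, where they were high, and so could not be counted as higher.

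The genes for complement receptor 3 went the other way and were above PBS at both times, most at 3 days. Its chains Itgam and Itgb2 were 292, 682 and 358 CPM and 237, 618 and 473 CPM. Cd93 was 140, 197 and 70.7 CPM, which was higher than PBS at 3 days and lower at 7 days. Of the remaining genes, C1ra and C1s1, the proteases that bind C1q, were highest in cluster 22, at up to 699 and 1369 CPM, together with the C1 inhibitor Serping1 at up to 2860 CPM, Clu and C2. Cr2 was highest in B cells at up to 131 CPM, and C5ar2 and Fcnb in neutrophils at up to 68.5 and 254 CPM. The list was chosen with earlier results of these data known. None of the terminal components reached 50 CPM in any class of at least 20 cells.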

How the data were processed

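The deposited files are raw counts of UMIs per gene and barcode in 3 libraries, which the authors made from 10x Genomics 3' v3.1 libraries with Cell Ranger 3.1.0 and the mm10 genome, with no normalization, and barcodes of few UMIs are still in them. The libraries held 52464690 (PBS), 56849043 (3-day WGP) and 48219246 (7-day WGP) UMIs. All value columns were used (0 left out).

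Barcodes with at least 1000 UMIs and at most 30% mitochondrial UMIs were kept. They were clustered together with Seurat 5.3.0 and sctransform 0.4.2 in R 4.3.3 (3000 variable genes without the complement genes, cell cycle, mitochondrial and ribosomal scores regressed, 30 principal components, Louvain, resolution 0.8, and 0.4 within the monocyte/macrophage class). Clusters were named by the marker list with the highest mean log2 fold, if this was 1 or more, 3 of its markers were up and it led the second list by 0.6. This lead was raised after mixed clusters had been named at a lower one. Scrublet marked 0, 0 and 2 cells by its automatic threshold, so doublets were removed only as an alternative.

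CPM is the summed UMIs of a gene per 1000000 UMIs of the cells. Intervals are exact Poisson or Clopper-Pearson and cover counting error only. Genes with 20 CPM in either library were compared with 10 CPM added, and 2-fold was the limit. The ratio and call were tested on simulated counts. The 8 genes were described in all groups, other complement genes were named at 50 CPM or more in a class of at least 20 cells, the 5 most similar genes were named for C1qa, C3, Cfp and Cfb, and 3 leading genes were named per sub-cluster. Some genes that these rules name are not reported here. Members and lists were chosen with earlier results of these data known. Coordinates came from GENCODE M21 (GRCm38), which is the build of the files but may not be their annotation release.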

Additional observations from a re-analysis of the deposited data

Results flagged for a closer look

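C5ar1 and Cd93 differed from PBS in opposite directions at the 2 times in the monocyte/macrophage class. The log2 ratio of C5ar1 was 0.56 in 3-day WGP and -0.23 in 7-day WGP, and that of Cd93 was 0.49 and -0.99. Each time is 1 library and both ratios use the same PBS library, so the difference between the times was not tested. The make-up of the class and the share of cells with Xist also differed between the libraries, and their part in this was not tested for Cd93. For C5ar1, the level was 150 CPM in the 92 Xist cells of 3-day WGP and 270 CPM in the 504 Y cells.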

How the results depend on the processing

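With 1 library per group, leaving out a library was not possible. No paired analysis was possible because each group has 1 library and no test was made. The C1q log2 ratio to PBS was lower than 0 under every alternative run. At 3 days (-1.17) it was -1.26 with the highest doublet scores removed, -0.67 with an upper limit at the knee of the UMI curve, -1.30 with Leiden clusters, -1.19 with complement genes among the clustering genes, -0.41 in Xist cells and -1.03 with TMM factors. At 7 days (-1.55) these values were -1.61, -1.91, -1.70, -1.57, -1.43 and -1.28. Without the sub-clusters that held T or B cell genes, an alternative added after seeing the data, they were -1.30 and -1.68. The thinned share of cells with C1q in PBS was 76.8% below the knee, 82.9% with Leiden clusters, 86.1% without thinning and 82.8% without those sub-clusters. At 3 days it was 80.7% below the knee, where it exceeded the PBS share, 77.2% in Xist cells and 84.8% without thinning, and at 7 days 47.4% below the knee and 65.9% without thinning. The cause was not tested. In Xist cells 86 genes were 2-fold lower and 159 higher at 3 days, in place of 225 and 250.

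Of 160 values of single members under alternatives, 157 kept their direction. The exceptions were C5ar1 at 3 days in Xist cells (-0.23), C5ar1 at 7 days with TMM factors (0.038) and Cfp at 3 days in Xist cells (0.69). TMM moved the median of all genes from -0.04 to 0.09 at 3 days and from -0.11 to 0.13 at 7 days, and the share of higher genes among those past 2-fold from 52.6% to 63.5% and from 44.6% to 62.1%. In Xist cells the 3-day share was 64.9%. Depth limits Cfb in PBS most, at 162 UMIs, and groups of few cells such as cluster 22.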
